A study of Mus musculus with 26 samples.

Results

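The genes described here are 8 markers of perivascular macrophages, Mrc1, Cd163, F13a1, Ms4a7, Lyve1, Pf4, Cbr2 and Stab1, out of 24734 genes tested. They were found through the transcript identifiers of the array probes, which gave 10 probes for the 8 genes, and all 8 genes passed the filter on dim probes. The samples were 26 single-colour arrays of EGFP-positive cells, labelled as microglia, sorted from 1 of 2 brain regions of C57BL/6 mice, the nucleus accumbens (NAc) and the medial part of the prefrontal cortex (mPFC). Each sample pooled cells from 3 to 6 mice to reach 500 pg of total RNA, which was amplified before labelling. Mice were perfused with cold buffer 1.5 hours after their final session of repeated social defeat stress (R-SDS), or, in the naive groups, of transfer between cages.

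All mice were CX3CR1EGFP/+, carrying 1 copy of Cx3cr1 replaced by EGFP, in the wild-type (WT) controls as in the other genotype, TLR-DKO; CX3CR1EGFP/+. TLR-DKO is known from the study as the loss of the Toll-like receptors Tlr2 and Tlr4 in every cell. Of the 8 groups, defined by genotype, region and stress, 6 held 3 arrays each, and TLR-DKO mPFC naive and TLR-DKO NAc R-SDS held 4 each. Stressed WT mice were labelled susceptible and stressed TLR-DKO mice resilient, so genotype and behavioural outcome cannot be told apart under stress. Pools of mice are the replicates, and p-values measure the spread between pools. Whether mPFC and NAc pools came from the same mice is not known. The region comparison treated all pools as independent, except where a block is named.

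Perivascular macrophages lie along the vessels of the brain, between the vessel wall and the glial boundary, and belong with the macrophages of the meninges and choroid plexus to the border-associated macrophages. They take up proteins and debris through scavenger and lectin receptors and present antigen. Microglia live inside the tissue and carry Tmem119, P2ry12 and Sall1, whereas border macrophages are recognised by genes such as Mrc1, Lyve1 and Cd163. Border macrophages also express Cx3cr1, so a sort on EGFP from that locus alone does not separate them from microglia.

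Levels are given as log2 of the background-corrected signal minus the 75th percentile of each array, so 0 is the level of a spot at that percentile and 1 unit is a 2-fold difference. A spot counts as detected where the scanner software called it well above background. Because each probe has its own response, levels are compared between arrays and never between genes. On this scale Tlr2 lay between 0.62 and 2.68 on the 12 WT arrays and between -4.60 and -3.46 on the 14 TLR-DKO arrays, where it was not detected on any. The Tlr4 probe gave 1.43 to 3.86 on TLR-DKO arrays and 1.60 to 3.14 on WT arrays, and where it lies relative to the deleted part of the gene is not known, so it checks nothing. All 15 homeostatic microglia markers, among them Cx3cr1, Csf1r, Trem2 and Tmem119, were detected on all 26 arrays, and of the 9 monocyte markers on the array 4 were detected on at least 13 arrays (Plac8 on 25, Vcan, Hp and Itgal on 26) and Ccr2 on 7. The share of spots detected ran from 50.3% to 71.0% on mPFC arrays (median 59.2%) and from 49.97% to 64.4% on NAc arrays (median 58.7%).

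Of the 8 markers 7 were detected in both regions and Cd163 in the mPFC alone, and values above background were fewer in the NAc. Counted over the 13 mPFC arrays, 91 of 104 gene-by-array values (87.5%) were well above background, against 53 of 104 (51.0%) on the 13 NAc arrays. All 8 genes were detected on 5 mPFC arrays and on 0 NAc arrays, while 3 NAc arrays had Stab1 as the single gene detected. Those 3 arrays were replicate 3 of WT NAc naive, TLR-DKO NAc naive and TLR-DKO NAc R-SDS. The arrays lay on 4 slides scanned on 2 days, slides 1 and 2 holding mPFC and slides 3 and 4 holding NAc, with slides 1 and 3 scanned on the first day. Detection was 91.1% on slide 1, 83.3% on slide 2, 36 of 48 values on slide 3 and 30.4% on slide 4, which held all 3 arrays just named. Since no slide holds both regions, no region difference can be told apart from a difference between slides. The p-values of the region comparison treat arrays, not slides, as the units, except where slide is named as a block.

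**Figure D1:**
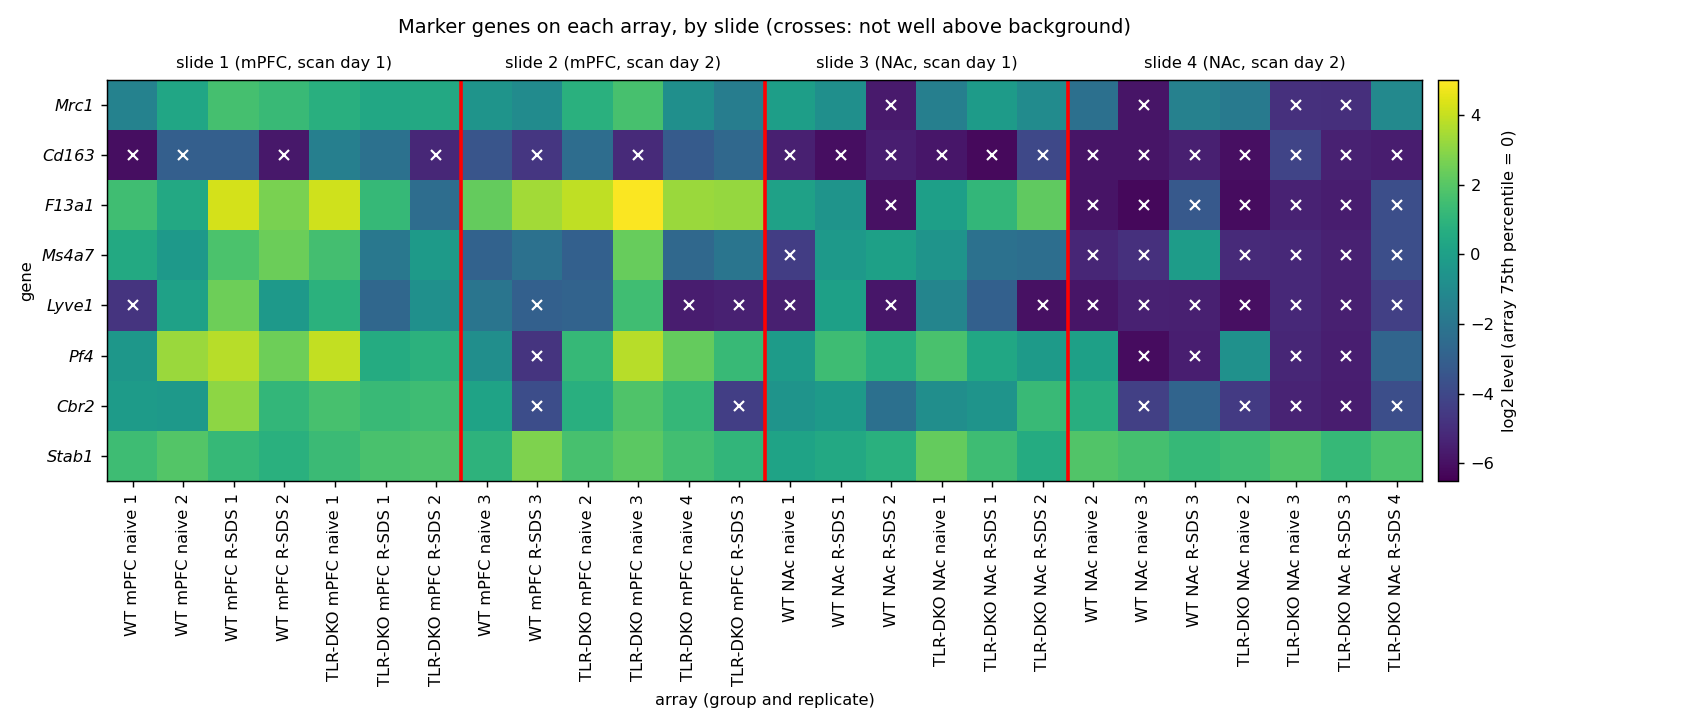
Log2 level of the 8 genes (rows) on each of the 26 arrays (columns), ordered by slide; white crosses mark values not well above background. Detection falls from 91.1% of values on slide 1 to 30.4% on slide 4, and the row of Stab1 has no cross.

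Detection overlapped widely. Each of the 12 arrays with Lyve1 also had Mrc1, F13a1, Ms4a7, Pf4 and Cbr2, and each of the 18 arrays with F13a1 also had Mrc1. Exceptions ran the other way for Ms4a7, Pf4 and Cbr2, each detected on 1 array without Mrc1, and for Cd163, detected on 2 arrays without Lyve1. Of the 8 genes, Stab1 was detected on 26 arrays, Mrc1 on 22, Pf4 on 21, Ms4a7 and Cbr2 on 19 each, F13a1 on 18, Lyve1 on 12 and Cd163 on 7. F13a1 and Cbr2 have a second, dimmer probe, detected on 8 and 14 arrays, whose levels correlated with the brighter one at r = 0.54 and 0.65 over the 26 arrays.

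Mrc1 encodes the macrophage mannose receptor, a lectin that takes up mannose-bearing glycoproteins. Its levels in the mPFC were -1.40, 0.33 and -0.57 in WT naive, 1.63, 1.31 and -0.96 in WT R-SDS, 0.76, 0.79, 1.67 and -0.78 in TLR-DKO naive and 0.40, 0.43 and -1.63 in TLR-DKO R-SDS samples. In the NAc they were -0.06, -2.27 and -5.84 in WT naive, -0.78, -5.65 and -1.47 in WT R-SDS, -1.55, -1.75 and -4.88 in naive TLR-DKO and -0.18, -0.96, -4.95 and -1.10 in stressed TLR-DKO samples. Mrc1 was detected on every mPFC array, and each NAc group held exactly 1 array at background, from -5.84 to -4.88, while 7 of the other 9 lay within the mPFC range and -1.75 and -2.27 just under it. Group means ran from 0.66 ± 1.41 (SD, n = 3) in WT mPFC R-SDS to -2.73 ± 1.87 (n = 3) in TLR-DKO NAc naive. In that order no neighbouring means differed by more than the larger of their SDs.

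F13a1 encodes the A subunit of coagulation factor XIII, a transglutaminase made by macrophages and platelets. In the mPFC it was detected on all 13 arrays, at 1.46, 0.44 and 2.29 in WT naive, 4.26, 2.67 and 3.42 in WT R-SDS, 4.15, 3.91, 4.95 and 3.27 in TLR-DKO naive and 1.19, -2.41 and 3.18 in TLR-DKO R-SDS samples. In the NAc it was detected on 5 of 13 arrays, at 0.07 in WT naive, -0.56 in WT R-SDS, 0.01 in TLR-DKO naive and 1.11 and 2.20 in TLR-DKO R-SDS samples. The other 8 NAc values, from -6.24 to -3.27, were not above background. All 5 detected NAc values came from slide 3, and none of the 7 arrays of slide 4 showed the gene. The highest NAc array, at 2.20, lay below 9 of the 13 mPFC arrays.

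Ms4a7 encodes a membrane protein of the MS4A family that spans the membrane several times and is used to tell border macrophages from microglia. It was detected on every mPFC array, at 0.50, -0.29 and -2.90 in WT naive, 1.72, 2.43 and -2.21 in WT R-SDS, 1.57, -2.97, 2.32 and -2.59 in TLR-DKO naive and -1.92, -0.25 and -2.04 in TLR-DKO R-SDS samples. In the NAc it was at -4.39, -5.28 and -4.91 in WT naive samples, none above background, and at -0.33, 0.04 and -0.13 in WT R-SDS samples, all above it. TLR-DKO NAc samples gave -0.56, -5.14 and -5.19 when naive and -2.21, -2.34, -5.44 and -3.72 after R-SDS. The 3 stressed WT NAc arrays were the most uniform group for this gene (SD 0.19), at the level of the middle of the mPFC range (median -0.29).

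**Figure D2:**
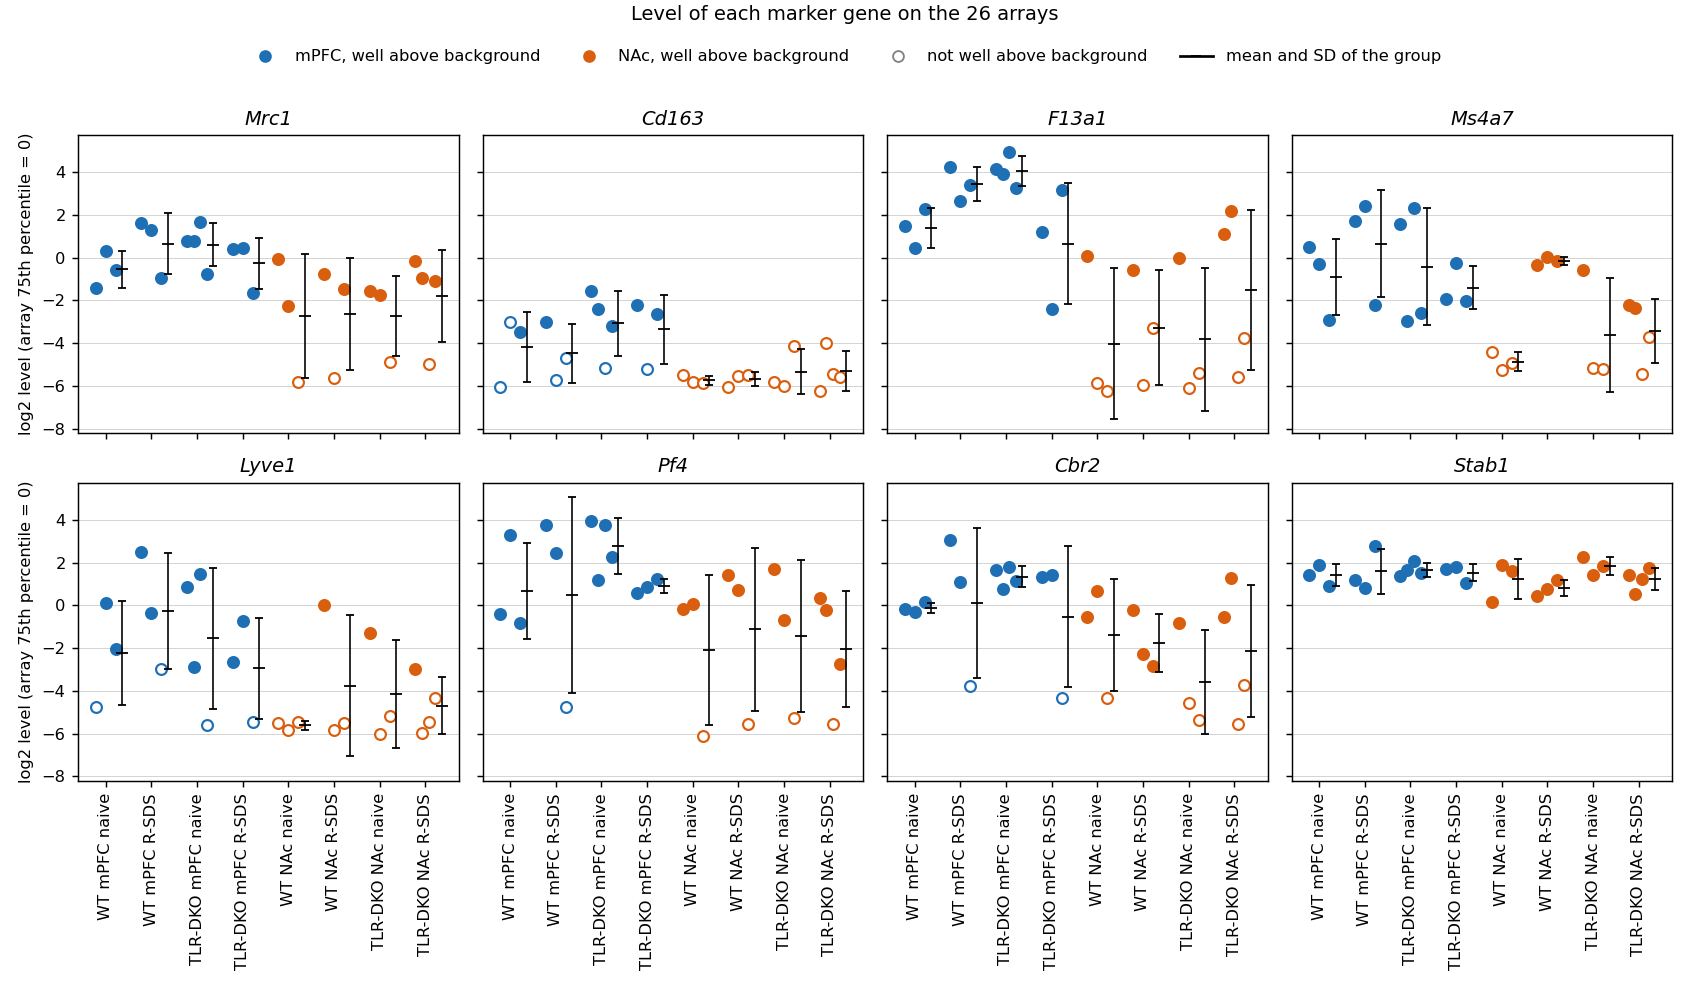
Log2 level of each gene on every array by group (blue, mPFC; orange, NAc); open circles were not well above background, and black marks give the group mean with its SD. Mrc1 and F13a1 are filled on all 13 mPFC arrays, Ms4a7 is open on all 3 WT NAc naive arrays and filled on all 3 WT NAc R-SDS arrays, and Stab1 stays between 0.16 and 2.78.

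Pf4, the chemokine known as platelet factor 4, ranged from -4.75 to 3.95 in the mPFC (median 1.24) and from -6.13 to 1.71 in the NAc (median -0.22). It was detected on 12 and 9 of 13 arrays. TLR-DKO mPFC naive samples held it at 3.95, 1.19, 3.75 and 2.28, and TLR-DKO mPFC R-SDS samples at 0.59, 0.87 and 1.24, of which the highest lay above the lowest naive value. The single mPFC array without it was WT R-SDS replicate 3, at -4.75 against 3.77 and 2.47 in the other replicates of that group. That array was the dimmest of all, with a 75th percentile signal of 80.7.

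Cbr2, a carbonyl reductase that is abundant in resident macrophages of several tissues, ranged from -4.34 to 3.05 in the mPFC (median 1.09) and from -5.56 to 1.27 in the NAc (median -2.26), detected on 11 and 8 arrays. The mPFC arrays without it were again WT R-SDS replicate 3, at -3.78, and TLR-DKO R-SDS replicate 3, at -4.34. In TLR-DKO NAc naive samples it was at -0.84, -4.56 and -5.37, all under the TLR-DKO mPFC naive values of 1.67, 0.77, 1.81 and 1.15.

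Lyve1, a hyaluronan receptor of lymphatic vessels that also marks a subset of border macrophages, was detected on 9 mPFC and 3 NAc arrays. Its highest levels were 2.48 in WT R-SDS replicate 1 and 1.45 in TLR-DKO naive replicate 3, both of the mPFC. The 3 NAc arrays with Lyve1 were replicate 1 of the stressed WT (0.04), naive TLR-DKO (-1.28) and stressed TLR-DKO (-2.95) groups, and the 3 WT NAc naive arrays lay between -5.84 and -5.47, at background. The order of the group means, from -0.27 ± 2.72 (n = 3) in WT mPFC R-SDS to -5.60 ± 0.21 (n = 3) in WT NAc naive, has no gap between neighbours that exceeds the larger of their SDs.

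Cd163, the scavenger receptor for haemoglobin bound to haptoglobin, was the dimmest against its own background. It was detected on 1 of 3 WT naive, 1 of 3 WT R-SDS, 3 of 4 TLR-DKO naive and 2 of 3 TLR-DKO R-SDS arrays of the mPFC, with a highest level of -1.55. On the 13 NAc arrays it was never well above background (-6.23 to -4.00).

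Stab1, stabilin-1, is a clearance receptor of macrophages and sinusoidal endothelium for modified lipoproteins and matrix fragments. It differed from the other 7 genes in being detected everywhere, from 0.79 to 2.78 in the mPFC and from 0.16 to 2.28 in the NAc. Its group means ran from 0.81 ± 0.39 (n = 3) in WT NAc R-SDS to 1.85 ± 0.42 (n = 3) in TLR-DKO NAc naive. The SD between replicates within groups, over the whole design, was 0.60 for Stab1, below the median of 0.76 over all genes tested. For the other genes it was 1.21 (Cd163), 1.87 (Mrc1), 1.90 (Ms4a7), 2.41 (Cbr2), 2.48 (Lyve1), 2.63 (F13a1) and 2.97 (Pf4). Of all genes tested, 99.9% had a replicate SD below that of Pf4, 99.5% below that of F13a1 and 99.1% below that of Lyve1.

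The comparison of the regions asks where these cells' macrophage markers were higher. Leaving Cd163 aside, 7 of 7 genes had a lower mean in the NAc, as 55.3% of all genes tested did, with a difference of -5.55 for F13a1, -2.88 for Pf4, -2.81 for Lyve1, -2.58 for Mrc1, -2.50 for Ms4a7, -2.43 for Cbr2 and -0.27 for Stab1, on the log2 scale and averaged over the 4 genotype and stress conditions. F13a1 fell (SE 0.98, 95% interval -7.58 to -3.52, adjusted p = 0.0122, limma over 24734 genes), and it was the 1 gene of these past the threshold of 0.05, where 0.898% of all genes tested passed and 0.813% passed as lower. The other genes missed it, with limma adjusted p-values of 0.0770 for Mrc1, 0.0974 for Ms4a7, 0.156 for Lyve1, 0.202 for Cbr2, 0.212 for Pf4 and 0.631 for Stab1. Before adjustment, 6 of the 7 had a p under 0.05, against 15.4% of all genes, and the median difference was -2.58 over the 7 genes and -0.06 over all genes tested. Like Cd163, F13a1 and Lyve1 reached the filter, 3 arrays of the same group well above background, in mPFC groups alone. Their direction, their place in these counts and the call of F13a1 are therefore not independent of the filter. Mrc1, Ms4a7, Pf4, Cbr2 and Stab1 reached it in an NAc group too. Cd163 entered the test through its mPFC arrays alone, so it had to lie lower in the NAc. Its measured means were -3.77 and -5.52, of which the second is below background, and the averaged comparison gives no bound on its fold (limma adjusted p = 0.0721). Fewer cells of a type and less RNA per cell cannot be told apart in such pooled samples.

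The direction held within most conditions. The NAc mean of the same 7 genes was below the mPFC mean for 7 of 7 in WT naive, WT R-SDS and TLR-DKO R-SDS samples and for 6 of 7 in TLR-DKO naive samples, where Stab1 differed by 0.20. Among all genes tested the shares below were 51.7%, 58.4%, 53.1% and 54.1% in the same order. The counts of the 7 genes use the brighter probe of each. In TLR-DKO R-SDS samples the dimmer Cbr2 probe had the higher mean in the NAc. Its values there were -1.97, -1.30, -5.33 and -3.56, against 0.13, -5.11 and -5.73 in the mPFC. The dimmer F13a1 probe also had the higher mean in the NAc in that condition. F13a1 reached the filter in each mPFC group and in no NAc group, so its direction here is not independent of the filter. Lyve1 reached it in TLR-DKO mPFC naive samples alone, so the same holds for it in that condition. The groups did not overlap for F13a1, Ms4a7 and Lyve1 in WT naive samples, for F13a1 in WT R-SDS samples, for Mrc1, F13a1 and Cbr2 in TLR-DKO naive samples, and for Ms4a7 and Pf4 in TLR-DKO R-SDS samples. Of all genes, 6.11%, 8.28%, 5.68% and 2.84% had every NAc array below every mPFC array in these 4 conditions. For Ms4a7, undetected in WT NAc naive samples, the WT naive difference is a bound: it was at least 6.64-fold higher in the mPFC, and Lyve1 at least 2.65-fold. These bounds set the mean of the bright group against the lowest signal that the scanner software called well above background on the dim arrays, or the probe's own signal where that was higher. They concern the measured means and take no account of the spread between arrays. The measured means behind them were -0.90 against -4.86 for Ms4a7 and -2.22 against -5.60 for Lyve1. For Cd163 no bound could be given in either WT condition, where the mPFC mean itself lay under the limit, and the bounds in naive and stressed TLR-DKO samples, of at least 1.38-fold and at least 1.25-fold, have a direction that the filter fixed.

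The region differences of F13a1 and Pf4 were larger among the arrays of the second scan day. For F13a1 the difference was -2.37 among the 13 arrays of the first day (limma adjusted p = 0.310) and -8.17 among the 13 of the second (limma adjusted p = 0.00683). With slide as a random block (correlation 0.137) no gene of the 8 passed, F13a1 had a difference of -5.48 (limma adjusted p = 0.231), and 0 of all genes tested passed against 222 without the block (1420 had an unadjusted p under 0.05). Pf4 differed by -1.64 on the first day and -3.44 on the second, Mrc1 by -1.87 and -2.31, Cbr2 by -1.78 and -1.88, Lyve1 by -3.01 and -2.22, Ms4a7 by -2.51 and -1.69, and Stab1 by -0.43 and -0.11.

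**Figure D3:**
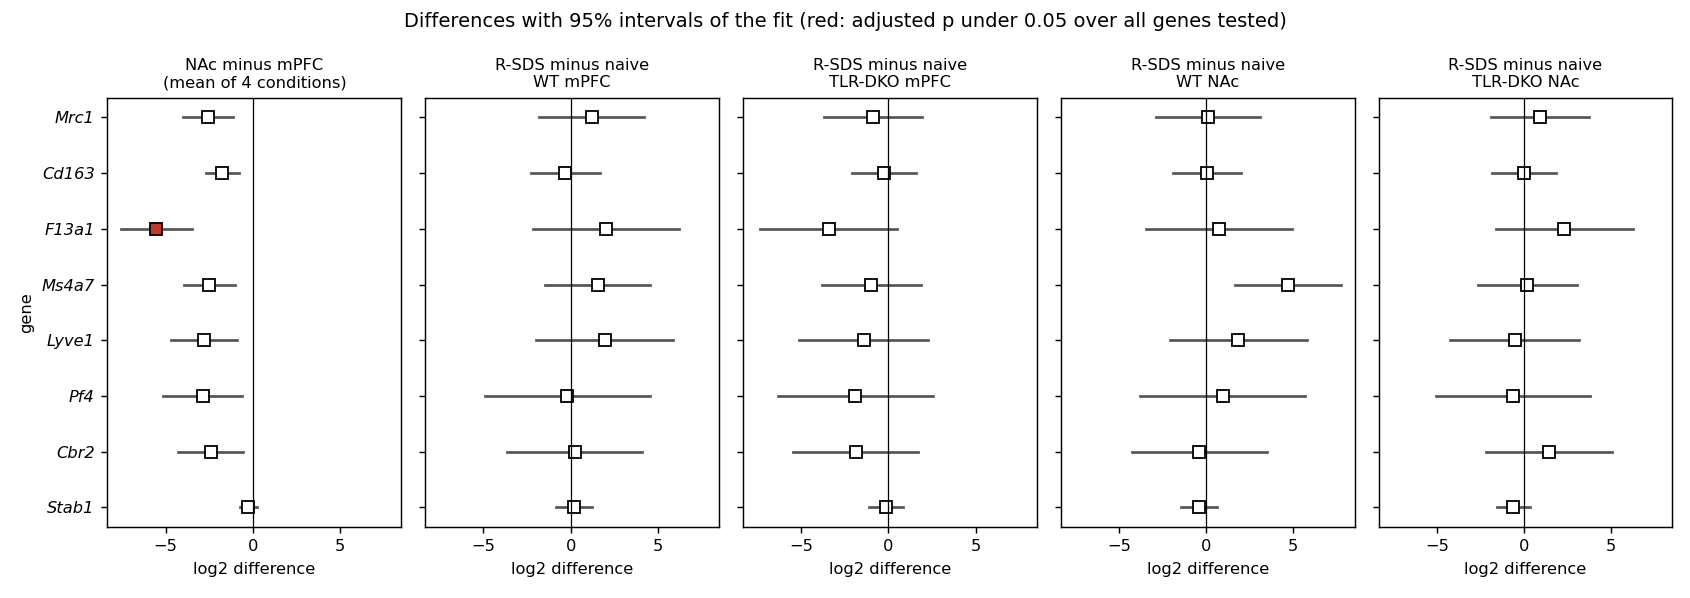
Log2 differences with 95% intervals for the 8 genes, NAc minus mPFC (left) and R-SDS minus naive in the 4 combinations of genotype and region; red marks an adjusted p under 0.05 over all genes tested. F13a1 is the single red point, at -5.55 between regions, and Ms4a7 in WT NAc is the one stress interval that excludes 0.

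Other genes of border macrophages were set beside the 8. Of a list of 29, 24 were measured, and in the region comparison 20 had a difference below 0 and 0 passed the threshold (7 with an unadjusted p under 0.05, limma). Of all genes tested 55.3% lay below 0, 0.898% passed and 15.4% had an unadjusted p under 0.05. The median over the list was -0.54. The 3 with the smallest p-values were Cd209a, a C-type lectin (-2.10 ± 0.52 SE, limma adjusted p = 0.0572), Clec10a, a galactose-type lectin (-4.10 ± 1.08, 0.0722), and Clec4n, the fungal glycan receptor also called dectin-2 (-1.73 ± 0.47, 0.0839). Cd209a was detected on 7 arrays in all, and its NAc mean was -5.29, a level at background. Its direction and its place in these counts may therefore not be independent of the filter on dim probes. The summed level of the list lay between 7.37 and 8.77 on mPFC arrays and between 7.10 and 8.15 on NAc arrays.

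Levels of other cells' markers were read in the same comparison, and their part in the result was not tested. The counts below stand beside 55.3% of all genes tested below 0, 15.4% with an unadjusted p under 0.05 and 0.898% past the threshold. Which groups brought each gene past the filter is not given here, so the direction of dim genes may not be independent of it. The 7 MHC class II genes were all below 0 (median -1.17, 0 past the threshold and 4 with an unadjusted p under 0.05, limma), and the 3 with the smallest p-values were H2-Eb1 (-1.69), Ciita (-0.49) and H2-Ab1 (-1.63). Their summed level was 4.62 to 7.37 in the mPFC and 4.20 to 5.93 in the NAc. Of the 15 homeostatic microglia genes 13 lay below 0 with a median of -0.14, and their summed level was 10.8 to 12.2 in the mPFC and 10.7 to 11.3 in the NAc. The 10 endothelial and mural markers, of which 6 were measured, had 3 below 0; Cldn5, a tight junction protein of brain endothelium, fell by 0.93 (limma adjusted p = 0.0458). Their summed level was 2.12 to 4.29 in the mPFC and 2.44 to 3.70 in the NAc. For monocyte markers, 5 of 10 measured, the median was -0.11 and the summed level 0.81 to 2.15 against 0.89 to 1.65. Fibroblast markers, of which 2 of 7 were detected on at least 13 arrays (Col1a2 on 26 and Slc6a13 on 15) and Lum and Islr on none, had a median of -0.55 over those 2, with a summed level of -0.554 to 1.098 in the mPFC and -0.94 to 0.11 in the NAc. Neuron markers were below 0 for 5 of 5 measured (median -0.64, summed level 4.83 to 6.83 against 4.81 to 5.88), astrocyte markers for 6 of 9 (median -0.36, 4.06 to 6.24 against 3.67 to 5.26) and B cell markers for 3 of 4 (median -0.48, -0.22 to 2.87 against -0.64 to 1.37). At an unadjusted p under 0.05 stood 1 of the neuron, 3 of the astrocyte and 2 of the B cell markers, and 0 of each passed the threshold (limma). That unadjusted count was 2 of 2 for fibroblast, 2 of 6 for endothelial and mural, 1 of 5 for monocyte and 1 of 15 for homeostatic microglia markers (limma). For dendritic cells 3 of 5 lay below 0 (median -0.20) and for oligodendrocytes 4 of 9 (median 0.09), whereas both measured neutrophil markers and all 4 of T and NK cells lay above 0.

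Stress left no difference in these genes past the threshold. Between R-SDS and naive samples 0 of 8 passed in WT mPFC, TLR-DKO mPFC, WT NAc and TLR-DKO NAc, where 0.00809%, 0%, 0% and 0.00809% of all genes tested did (limma). In the same order the counts at an unadjusted p under 0.05 were 0, 0, 1 and 0 of 8, against 5.90%, 5.07%, 2.93% and 3.04% of all genes. The median difference over the 8 genes was 0.72, -1.20, 0.42 and 0.11, beside 0.17, -0.05, 0.06 and -0.02 over all genes. Differences above 0 numbered 6 of 8 in WT mPFC (62.3% of all genes), 6 of 8 in WT NAc (55% of all genes) and 5 of 8 in TLR-DKO NAc (48.1% of all genes). Averaged over regions and genotypes 0 of 8 passed for stress (0% of all genes, limma), and for the difference between the genotypes in the response 0 of 8 passed in either region (0% of all genes).

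The gene with an unadjusted p under 0.05 was Ms4a7 in WT NAc, higher by 4.72 ± 1.46 (SE) after R-SDS (95% interval 1.68 to 7.76), with a limma adjusted p of 1.00 over all genes. All 3 stressed samples lay above all 3 naive ones, as did those of 4.51% of all genes tested. As naive samples were below background, the fold between the measured group means can only be given as at least 11.2, from a bright mean of -0.14 against a measured -4.86. That bound takes no account of the spread between samples, and the 95% interval above starts at 1.68 on the log2 scale. The difference was 4.25 among the 3 arrays of slide 3 and 4.96 among the 3 of slide 4, and 1.68 with normexp background correction. In TLR-DKO NAc samples Ms4a7 differed by 0.20 (95% interval -2.64 to 3.05), and the difference between genotypes in the response was -4.51 ± 2.00 (limma adjusted p = 1.00). It was -2.98 without TLR-DKO NAc naive replicate 1 and -1.93 with normexp background correction. The other 7 genes in WT NAc differed by -0.41 to 1.85, with intervals that all include 0.

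In TLR-DKO mPFC all 8 differences were below 0, as were 54.0% of all genes, the most negative being F13a1 at -3.42 ± 1.88 (95% interval -7.34 to 0.50, limma adjusted p = 0.969), Pf4 at -1.89 and Cbr2 at -1.89. Of the 8, Cd163 and Lyve1 passed the filter through the TLR-DKO mPFC naive arrays alone, so their direction here is not independent of it. Leaving out TLR-DKO mPFC R-SDS replicate 3 brought Cbr2 to 0.02. In WT mPFC F13a1 was higher by 2.05 ± 2.01 after R-SDS, and its response differed between the genotypes by -5.47 ± 2.76 (adjusted p = 0.816, limma). That difference was -7.28 on slide 1 and -1.99 on slide 2. Mrc1 differed by 1.21 ± 1.44 in WT mPFC, -0.88 ± 1.35 in TLR-DKO mPFC, 0.09 ± 1.44 in WT NAc and 0.93 ± 1.35 in TLR-DKO NAc. The 95% intervals in WT mPFC ran from -1.79 to 4.20 for Mrc1 and from -4.91 to 4.55 for Pf4, so a stress difference of several fold in these genes was not detectable with this number of arrays.

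Between the genotypes 0 of 8 genes passed in naive mPFC, stressed mPFC, naive NAc or stressed NAc samples, where 0.0121%, 0.0121%, 0.0121% and 0.00809% of all genes tested did (limma). In naive mPFC all 8 TLR-DKO means were above the WT means, with a median of 1.13, as 49.8% of all genes were; F13a1 led at 2.67 ± 1.88 (limma adjusted p = 0.936). This comparison shares its TLR-DKO naive arrays with the stress comparison in TLR-DKO mPFC. Cd163 and Lyve1 passed the filter through those arrays alone, so their direction in both comparisons is not independent of the filter. At an unadjusted p under 0.05 the 4 counts were 0, 0, 0 and 1 of 8, against 5.69%, 5.83%, 3.3% and 4.03% of all genes. On average over regions and stress the count past the threshold was 0 of 8 as well (0.0202% of all genes). The gene with an unadjusted p under 0.05 was Ms4a7 in stressed NAc, at -3.28 ± 1.37 in TLR-DKO relative to WT (limma adjusted p = 0.997).

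Without Stab1 the genes moved up and down together from array to array. Over the 26 arrays the 21 pairs of the other 7 genes all had a Pearson r above 0, from 0.15 to 0.78 with a median of 0.60, and the 7 pairs with Stab1 had r from -0.13 to 0.16. The arrays fall into slides and regions, between which the levels of these genes differed. The permutations treated all arrays as interchangeable, so their p-values take no account of such shared differences. The 28 pairs formed 1 family, and 16 had an adjusted p under 0.05 by permutation (100000 draws, Benjamini-Hochberg over 28) for Pearson's r and 16 for Spearman's rho. None of those pairs included Stab1.

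Mrc1 and F13a1 had r = 0.78 and rho = 0.75 (permutation p = 1e-05 for both, the smallest these draws can give, adjusted 0.00014), and r = 0.72 without the 2 arrays farthest from the median of Mrc1. Pf4 and Cbr2 had r = 0.78 and rho = 0.68 (permutation p = 3e-05 and 0.00016, adjusted 0.00028 and 0.00112), and r = 0.71 without 2 arrays. Mrc1 and Cbr2 had r = 0.75 and rho = 0.80 (permutation p = 1e-05 for both, adjusted 0.00014) and r = 0.79 without 2 arrays. For Ms4a7 and Lyve1 r was 0.73 and rho 0.62 (permutation p = 4e-05 and 0.00083, adjusted 0.00028 and 0.00291), and r = 0.66 without 2 arrays. Cd163 and F13a1 had a lower value (r = 0.55, rho = 0.59, permutation p = 0.00367 and 0.00173, adjusted 0.00642 and 0.00440; r = 0.53 without 2 arrays), and Cd163 had r from 0.15 to 0.37 with the other 5.

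Part of this correlation lay between regions and slides. The median over all 28 pairs was 0.57, and it was 0.17 within the 13 mPFC arrays, 0.28 within the 13 NAc arrays, 0.30 once group means were removed and 0.21 once slide means were removed. Without the pairs of Stab1 these 5 medians were 0.60, 0.29, 0.44, 0.44 and 0.24, over 21 pairs. With slide means removed, Mrc1 and F13a1 had r = 0.64, Mrc1 and Cbr2 0.56, Pf4 and Cbr2 0.53, Ms4a7 and Lyve1 0.49, and Cd163 and F13a1 0.22. On slides 1 to 4 alone the median over the 28 pairs was 0.42, 0.35, 0.04 and 0.17. Over the 21 pairs without Stab1 it was 0.47, 0.49, -0.003 and 0.17. Pairs differed in this respect. Mrc1 and Cbr2 had r = 0.76 in the mPFC and 0.62 in the NAc, Mrc1 and Lyve1 0.86 and 0.38, and Pf4 and Cbr2 0.64 and 0.75. Mrc1 and F13a1 had 0.19 in the mPFC and 0.75 in the NAc, where F13a1 was detected on 5 arrays. Another part lay between arrays at background and the rest: over arrays on which both genes of a pair were detected the median was 0.42 over 27 pairs, with r = 0.32 for Mrc1 and F13a1 (18 arrays), 0.47 for Pf4 and Cbr2 (18), 0.62 for Mrc1 and Cbr2 (18) and 0.86 for Ms4a7 and Lyve1 (12).

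**Figure D4:**
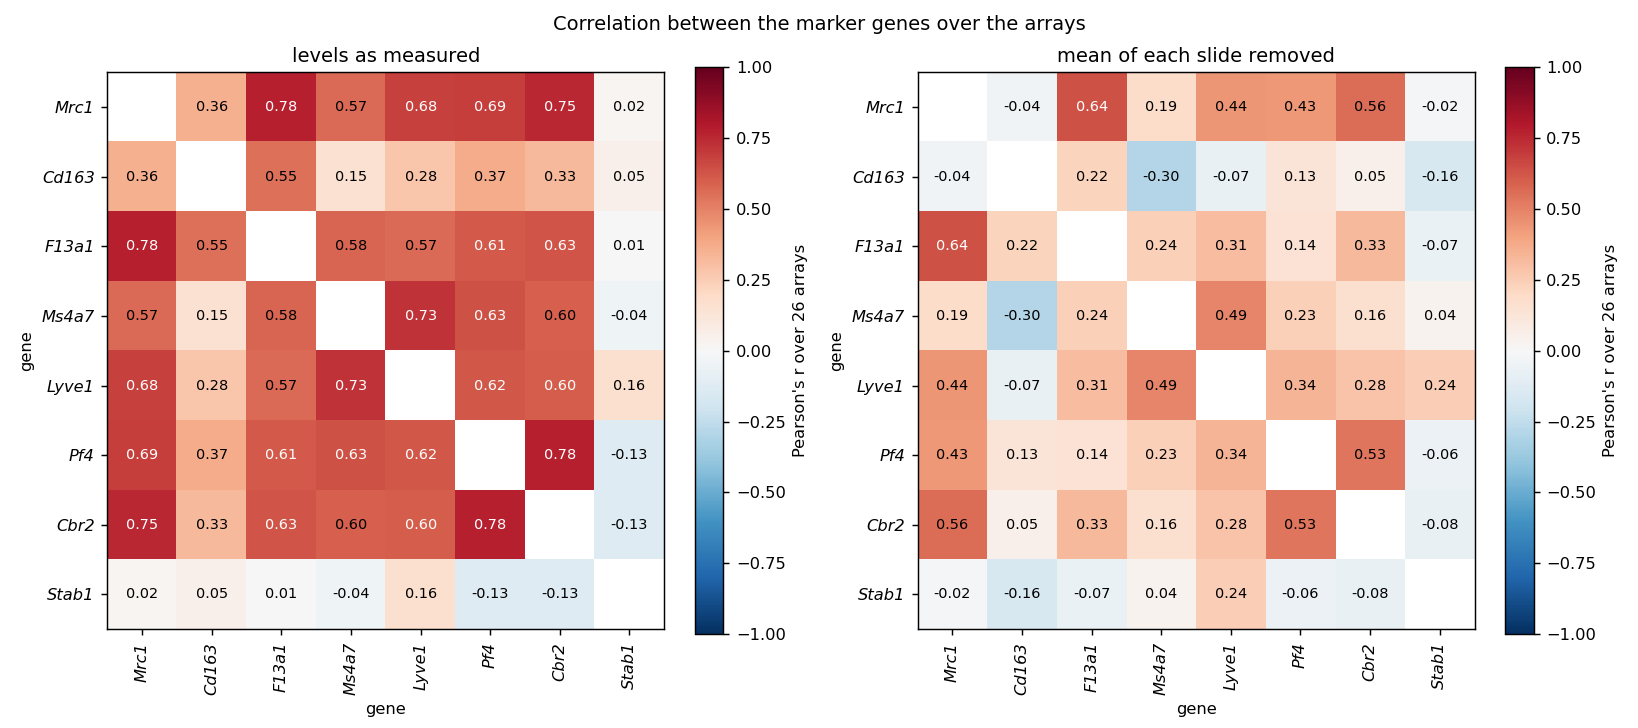
Pearson's r between the 8 genes over the 26 arrays, as measured (left) and with the mean of each slide removed (right). The median over the 28 pairs goes from 0.57 to 0.21, Mrc1 and F13a1 from 0.78 to 0.64, and the row of Stab1 lies between -0.16 and 0.24 in both.

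The genes most like each marker were sought among 14365 tested genes with a RefSeq symbol, by Pearson's r over the 26 arrays, for the 6 markers detected on at least 13 arrays. For Mrc1 the gene with the highest r was Clec10a, the lectin named above, at 0.89 (0.66 within the mPFC, 0.87 within the NAc and 0.87 with group means removed), followed by the olfactory receptor Olfr1339 (0.78), F13a1 (0.78), Mdh1b (0.77) and Cbr2 (0.75). Among all 24733 other genes ranked by r with Mrc1, Pf4 came 15th and Lyve1 18th, whereas Stab1 came at rank 13062. The median r of Mrc1 with all genes was 0.03, and 95% of genes had r under 0.43. For Pf4 the nearest gene was Cbr2, ahead of Olfr103, Olfr1339, Ankmy1 and S100a6 (0.72 to 0.76).

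Clec10a was detected on all 13 mPFC arrays, from 1.12 to 5.25, and on 8 of 13 NAc arrays. Its 5 undetected NAc arrays, at -6.14 to -5.05, included the 4 on which Mrc1 was not detected. The fifth was WT NAc naive replicate 2, where Mrc1 was at -2.27, the lowest detected level of that gene. Over the 21 arrays with both genes detected their r was 0.65.

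The genes nearest to the others were mixed. Cbr2 was nearest to Olfr103 (0.82), Olfr1339 (0.82), Pf4 (0.78), Zim3 (0.78) and Art5 (0.77), F13a1 to Tex13d (0.83), Gm11190 (0.82), Olfr763 (0.82), Bglap (0.82) and Adamts13 (0.80), and Ms4a7 to Rpl15 (0.81), Tmem54 (0.80), Panx2 (0.79), Gm6936 (0.78) and Col1a2 (0.76). Olfr1339 was detected on 10 of 26 arrays and Mdh1b on 9. Stab1 was nearest to Cd68, the lysosomal glycoprotein of macrophages and microglia (0.76), Chsy1 (0.75), Rps6ka1 (0.74), Pltp (0.73) and Rpl18 (0.73), all detected on 26 arrays. No other marker of the 8 was among the 5 nearest of F13a1, Ms4a7 or Stab1.

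**Figure D5:**
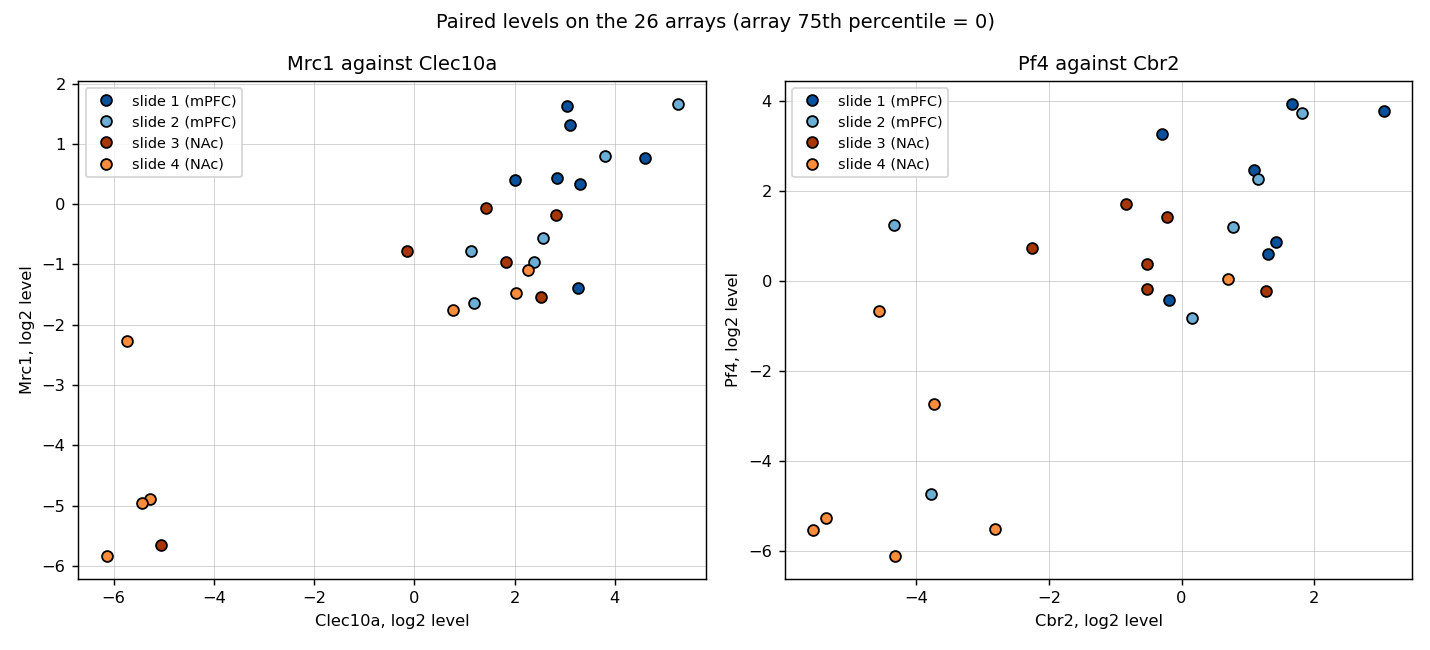
Mrc1 against Clec10a and Pf4 against Cbr2, in log2 level, 1 point per array coloured by slide. Mrc1 and Clec10a have r = 0.89 over the 26 arrays, and the 4 arrays with Mrc1 at background have Clec10a at background too.

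The promoters of the genes that moved together can be read beside that of Stab1, which did not. RefSeq promoters (GRCm38.p6) were matched for 7 of the 8 genes, 9 in all, and the 250 bases before each start are used here. In all, 4 motifs were searched on both strands: GAGGAA, a core recognised by the myeloid factor PU.1, TGCTGA, a MAF half-site, TGANTCA, an AP-1 site, and TTGCNNAA, a C/EBP site. In the sequences below capitals mark GAGGAA or its reverse complement and, in Stab1, also TGCTGA.
Mrc1, chr2:14229164-14229413, plus strand: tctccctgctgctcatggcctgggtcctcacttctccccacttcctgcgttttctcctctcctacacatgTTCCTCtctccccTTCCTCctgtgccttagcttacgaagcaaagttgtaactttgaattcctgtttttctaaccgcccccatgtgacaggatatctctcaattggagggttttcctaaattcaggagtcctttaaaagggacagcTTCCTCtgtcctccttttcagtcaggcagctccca
F13a1, 1 of 2 starts, chr13:37050245-37050494, minus strand: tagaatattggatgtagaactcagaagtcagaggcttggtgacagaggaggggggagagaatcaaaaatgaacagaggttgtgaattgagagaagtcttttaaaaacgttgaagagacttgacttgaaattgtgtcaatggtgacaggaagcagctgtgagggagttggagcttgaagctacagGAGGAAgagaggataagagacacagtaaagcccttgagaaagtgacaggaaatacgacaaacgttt
Pf4, chr5:90772185-90772434, plus strand: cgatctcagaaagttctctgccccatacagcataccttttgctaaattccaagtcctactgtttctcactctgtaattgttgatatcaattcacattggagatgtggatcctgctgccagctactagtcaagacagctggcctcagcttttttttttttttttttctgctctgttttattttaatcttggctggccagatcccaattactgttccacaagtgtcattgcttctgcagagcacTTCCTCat
Cbr2, chr11:120732022-120732271, minus strand: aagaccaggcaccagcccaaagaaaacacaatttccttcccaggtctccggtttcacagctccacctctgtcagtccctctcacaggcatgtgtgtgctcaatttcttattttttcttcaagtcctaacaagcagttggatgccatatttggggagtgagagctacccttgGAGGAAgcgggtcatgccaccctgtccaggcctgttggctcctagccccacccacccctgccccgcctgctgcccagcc
Stab1, chr14:31168642-31168891, minus strand: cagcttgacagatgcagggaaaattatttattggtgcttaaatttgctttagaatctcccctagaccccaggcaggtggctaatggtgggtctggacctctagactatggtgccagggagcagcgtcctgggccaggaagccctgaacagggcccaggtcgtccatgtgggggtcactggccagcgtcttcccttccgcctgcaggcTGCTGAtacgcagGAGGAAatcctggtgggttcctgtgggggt

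GAGGAA was found in 5 of the 9 promoters, those printed, and in 23.3% of the 32851 mouse promoters of this length. Mrc1 held it 3 times and the other 4 once each. It was as much present in Stab1 as in the genes that moved together, and the second F13a1 start and the promoters of Cd163 and Ms4a7 did not hold these letters. TGCTGA was found in 1 of 9, in Stab1 (16.1% of all promoters), TGANTCA in 1 of 9, in Ms4a7 (6.75%), and TTGCNNAA in 1 of 9, in Pf4 (9.56%). A match is a string of letters and not a measured site.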

How the data were processed

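EGFP-positive cells were profiled on 26 single-colour Agilent arrays. The deposited scanner files hold signal intensities that the authors extracted in Agilent Feature Extraction (version 11.0.1.1 according to the submitters' processing notes); the deposited series table holds log2 values of the same arrays (r of at least 1.00 with the scanner values, shifted by up to 0.062), with medians from -2.90 to -2.21, used as an alternative. The processed signal, already background-corrected per the file headers, was taken as log2 minus the 75th percentile of each array. Control spots and 108 probes with outlier flags were left out. Spots of a probe were averaged, and the brightest probe stood for a gene. A probe was kept if any group held 3 or more arrays that detected it. Of 29744 probes with a RefSeq identifier, 27980 were matched to a symbol.

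Comparisons used limma 3.58.1 in R 4.3.3 on 8 group means over all 26 arrays, with empirical Bayes and Benjamini-Hochberg adjustment over 24734 genes and a threshold of 0.05. The script was tested on simulated data. 13 comparisons were made. Correlations used 100000 permutations. The precision is limited by the number of arrays. The settings varied were the background correction (normexp on the median signal, offset 50; the mean signal was not used here), normalization, filters, probes, variance model, array weights, slide, scan day, replicate number and each array left out; the fits by scan day and the correlations within regions or over detected arrays were chosen after seeing the data. The named genes were all 8 with each probe, the 5 genes with the highest r for those detected on at least 13 arrays, and, of each list described, those past the threshold or else the 3 with the smallest p. The members and lists were chosen with earlier results of these data known.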

Additional observations from a re-analysis of the deposited data

How the results depend on the processing

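In the region comparison F13a1 alone passed the threshold, and this count of 1 of 8 genes, Cd163 included, became 4 with array weights (Mrc1, Cd163 and Ms4a7 joined it), 2 with scan day as a block (Ms4a7), and 0 with slide as a random block or in the arrays of scan day 1 alone. Leaving out 1 array at a time gave 1 to 2 genes, and F13a1 passed each time (adjusted p 0.00483 to 0.0333, limma). Left out singly, WT_mPFC_RSDS replicate 2 brought in Cd163, WT_NAc_naive replicate 1 Mrc1 and DKO_NAc_naive replicate 1 Ms4a7. In the other 12 comparisons 0 genes of the 8 passed in any of 320 further fits. The median r of 0.57 lay between 0.53 and 0.59 with 1 array left out; it moved to 0.30 without group means, 0.21 without slide means, 0.22 without both, 0.42, 0.35, 0.0386 and 0.17 within slides 1 to 4, 0.17 within the mPFC, 0.28 within the NAc and 0.42 over arrays with both genes detected. The cause was not tested.

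Of 104 member differences 35 exceeded their SE, and 8 of these fits turned sign: in the arrays of scan day 2, Lyve1 under stress in WT mPFC (-0.94), Cd163 (-0.11) and Stab1 (-0.12 in NAc, -0.18 on average) between genotypes, Ms4a7 between stressed mPFC genotypes (0.17) and Stab1 under stress on average (0.12); in those of scan day 1, Ms4a7 between genotypes on average (0.0053); and Cbr2 under stress in TLR-DKO mPFC (-2.87 to 0.0188 with 1 array left out, the latter without DKO_mPFC_RSDS replicate 3). A group with 1 array on a scan day is assumed to vary like the others. Normexp correction shrank the region differences, to -3.36 for F13a1 and -1.23 for Mrc1. Deviations of samples with the same replicate number within a region correlated at -0.14 to 0.26. Differently numbered samples and samples of both regions were not set beside them, so whether the numbers pair samples is not known. With the replicate block the region count stayed at 1 and F13a1 had an adjusted p of 0.00874 (limma). Dim signal and the number of arrays limit what Cd163, Lyve1 and all stress comparisons can show.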
